A study of Mus musculus with 24 samples.

Results

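KIT+ differentiating spermatogonia (dSPG) were compared with THY1+ undifferentiated spermatogonia (uSPG) from the same mutant, a germline conditional knockout (cKO) of Sox3. The comparison uses 6 of the 24 RNA-seq libraries of the series, 3 from each fraction, and it asks which genes differ between the fractions in the absence of SOX3. The mice carried a floxed Sox3 gene and Ddx4-Cre, which is active in the germ line, on a C57BL/6J background. Testes were taken at postnatal day 7, those of 3 mice were pooled for each isolation, and cells were bound with magnetic beads against THY1 or KIT. Sox3 lies on the X chromosome, and the Cre acts in germ cells, so somatic cells that come through the sort keep the gene. Both fractions carry the mutation, so the comparison is between cell fractions and not between genotypes. A sort of the same fractions from wild-type (WT) mice with SOX3, the 6 WT libraries of the Zbtb16 (luxoid line) experiment, is set beside it. That table was normalized separately, and no test was run between the tables.

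Spermatogonia begin as a small pool of stem cells that answer to glial cell line-derived neurotrophic factor (GDNF) from Sertoli cells through the receptor RET and its co-receptor GFRA1. Progenitors then become differentiating spermatogonia under retinoic acid, with a gain of the receptor tyrosine kinase KIT, and later enter meiosis. SOX3 is an HMG-box transcription factor of the SOXB1 group that is found in undifferentiated spermatogonia.

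The targeted gene and the sorting markers were read first. Values are FPKM (fragments per unit of transcript length and of library size), listed by library in the order of replicates 1, 2 and 3. Sox3 (ENSMUSG00000045179, chrX:60891366-60893430 of GRCm38, minus strand) was at 0, 0 and 0.0434 FPKM in cKO THY1+ uSPG and at 0, 0.0820 and 0.0410 FPKM in cKO KIT+ dSPG, which is about 0, 0 and 1 read and 0, 2 and 1 reads. Sox3 was thus at or near 0 in all 6 libraries, while the WT samples of that table averaged 13.1 FPKM under the THY1+ label and 9.97 FPKM under the KIT+ label. Thy1 (ENSMUSG00000032011, chr9:44043384-44048579), which encodes a surface protein of undifferentiated spermatogonia and of T cells, was at 5.002, 3.61 and 5.26 FPKM in THY1+ uSPG and at 0.286, 0.244 and 0.292 FPKM in KIT+ dSPG. Kit (ENSMUSG00000005672, chr5:75574916-75656722) was at 15.5, 14.2 and 17.1 FPKM and then at 49.9, 71.4 and 56.7 FPKM in the same groups. For both markers the groups did not overlap and ran with the labels, with log2 changes of -3.64 ± 0.19 (SE) for Thy1 and 1.91 ± 0.22 for Kit, given with no test because the cells were sorted on these proteins and the comparison was chosen knowing that both genes ran with the labels. In the 6 WT libraries of this table the markers run against the labels, and mean Thy1 was 0.240 FPKM under the THY1+ label and 3.83 FPKM under the KIT+ label. These libraries were not regrouped, and no direction is drawn from them.

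Estimated depth in the cKO was about 28250000 to 29500000 reads in both libraries of replicate 1 and about 11000000 to 11830000 in the other 4, and 15709 to 16401 genes per library were at 1 FPKM or above. Of 21212 genes tested, 4809 (22.7%) differed between the fractions by at least 1.5-fold at an adjusted p of at most 0.05 in limma, and such genes are called changed below. Of these, 2227 (10.5% of genes tested) were higher and 2582 (12.2%) lower in KIT+ dSPG. These shares of all genes are the ones to set beside each list count below. The change was at least 4-fold for 376 of the higher and 488 of the lower genes, and at least 16-fold for 39 and 137. With replicates 2 and 3 alone the count was 2480 (1090 higher, 1390 lower). The summed level of 8 genes used in all germ cells was 1098.5 to 1251.6 FPKM in THY1+ uSPG and 769.6 to 1060.5 FPKM in KIT+ dSPG. In bulk RNA fewer cells of a type and less RNA per cell cannot be told apart. When each library was centred on these 8 genes, a scaling added after the data were seen, the median log2 change of all genes moved from -0.02 to 0.44, and 6562 genes (30.9%) were higher and 1222 (5.76%) lower. The share of changed genes that were higher in KIT+ dSPG was 46.3% on the deposited scale and 84.3% under that centring. It was 51.9% under quantile normalization (2605 higher, 2419 lower) and 51.6% without THY1+ replicate 2 (2357 higher, 2209 lower). Changes below are on the deposited scale. Under that centring the medians of the lists of meiosis, FGF signalling, D-type cyclins, replication, DNA methylation, Rhox genes, retinoic acid receptors and peritubular cells turned from negative to positive.

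Genes of the stem cell state and of the GDNF pathway were lower in KIT+ dSPG. Of the 12 genes in this list 9 were lower and 0 higher, beside 12.2% and 10.5% of all genes. The median log2 change was -1.83 against -0.02 for all genes tested. Groups did not overlap for 10 of the 12, beside 44.5% of all genes. Ret, the GDNF receptor kinase, was at 42.2, 35.9 and 48.7 FPKM in THY1+ uSPG and at 6.67, 6.79 and 11.6 FPKM in KIT+ dSPG, a log2 change of -2.36 ± 0.34 (adjusted p 3.75e-04). Its co-receptor Gfra1 was at 43.3, 33.5 and 43.0 against 10.03, 7.52 and 12.9 FPKM, a log2 change of -1.99 ± 0.24 (adjusted p 9.15e-05). For both receptors the lowest THY1+ library was above the highest KIT+ library. The transcription factors downstream of GDNF moved the same way, with log2 changes of -2.35 ± 0.33 for Lhx1, -1.70 ± 0.30 for Bcl6b and -1.53 ± 0.30 for Etv5, and Etv5 itself was at 20.7, 19.2 and 24.7 FPKM against 6.87, 6.32 and 9.16 FPKM. Id4, an inhibitor of basic helix-loop-helix factors that marks stem spermatogonia, was at 23.4, 14.7 and 22.8 FPKM in THY1+ uSPG and at 5.05, 4.07 and 7.68 FPKM in KIT+ dSPG. Nanos2, an RNA-binding protein that holds cells in the undifferentiated state, fell from 7.61, 5.17 and 7.02 to 1.80, 0.881 and 2.11 FPKM (log2 change -2.05 ± 0.31), and the T-box factors T and Eomes had log2 changes of -1.79 ± 0.19 and -2.32 ± 0.24. All 9 stayed changed when any 1 of the 6 libraries was left out. Etv5 did not pass with replicates 2 and 3 alone (log2 change -1.50). The other 3 did not pass: Utf1 was at -1.11 ± 0.40 (adjusted p 0.0561), Pou3f1 at -0.66 ± 0.26 (0.0778) and Shisa6 at 0.47 ± 0.27 (0.206). With the replicate number as a block in the fit of all 12 libraries of the table Utf1 and Pou3f1 passed, at adjusted p of 0.0415 and 0.00798, and with the block in a fit of the 6 cKO libraries alone Pou3f1 passed (0.0377) and Utf1 did not (0.0940).

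Genes of progenitors and of undifferentiated spermatogonia as a whole were also lower in KIT+ dSPG, 8 of 11, beside 12.2% of all genes. The count higher was 0, and the median log2 change was -1.29. Zbtb16, the zinc finger factor of undifferentiated spermatogonia, was at 40.2, 51.0 and 48.7 FPKM in THY1+ uSPG and at 9.79, 15.7 and 15.9 FPKM in KIT+ dSPG (log2 change -1.78 ± 0.29, adjusted p 7.83e-04). Sall4, its partner in the nucleus, was at 35.8, 46.4 and 43.2 FPKM against 8.68, 16.7 and 17.7 FPKM (log2 change -1.60 ± 0.40). KIT+ replicate 1 was the lowest library for both factors, and no KIT+ library reached the THY1+ range. Sall4 did not pass with replicates 2 and 3 alone (log2 change -1.38). Cdh1, which encodes E-cadherin, had the largest change of the list, 6.80, 5.36 and 7.39 against 0.998, 1.201 and 1.83 FPKM (log2 change -2.23 ± 0.32). Pou5f1, which encodes OCT4, and Nanos3, an RNA-binding protein of progenitors, had log2 changes of -1.61 ± 0.26 and -1.42 ± 0.18. Lin28a, whose product blocks maturation of let-7 microRNAs, was at 24.5, 28.8 and 26.8 FPKM in THY1+ uSPG and at 9.10, 11.4 and 14.7 FPKM in KIT+ dSPG, a log2 change of -1.21 ± 0.18 (adjusted p 4.32e-04). Foxo1, a forkhead factor of stem cell maintenance, changed by -1.03 ± 0.28 (adjusted p 0.0176), but its adjusted p was up to 0.0708 in the 3 of 6 fits that each left out 1 library in which it did not pass, the highest without KIT+ replicate 1. Neurog3, a basic helix-loop-helix factor of progenitors, was under 1 FPKM in every cKO library, at 0.418, 0.707 and 0.174 FPKM in THY1+ uSPG and at 0.184, 0.494 and 0.219 FPKM in KIT+ dSPG. The groups overlapped, and the log2 change of -0.36 ± 0.38 did not pass (adjusted p 0.509). In WT of the same table Neurog3 averaged 5.595 FPKM under the THY1+ label and 6.88 FPKM under the KIT+ label, and all 6 of these were above all 6 cKO libraries. In the Zbtb16 table Neurog3 was lower in WT KIT+ dSPG (log2 change -0.67). Taf4b, a subunit of the general transcription factor TFIID, and Rarg, a retinoic acid receptor, had log2 changes of -0.13 ± 0.12 and -0.19 ± 0.30 and did not pass.

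**Figure D1:**
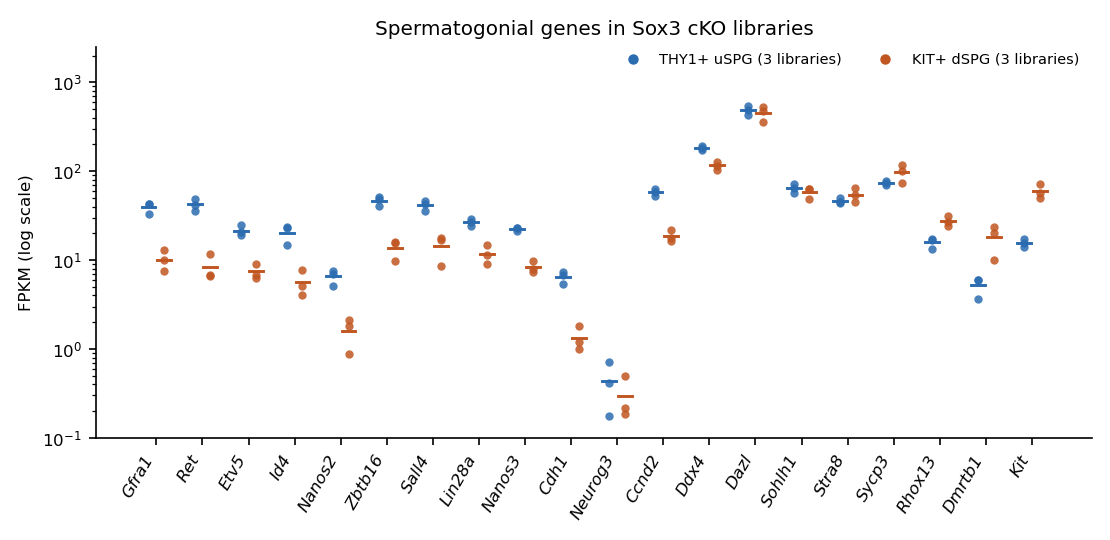
FPKM on a log axis for 20 spermatogonial genes in each Sox3 cKO library; points are the 3 THY1+ uSPG (blue) and 3 KIT+ dSPG (orange) libraries of a gene, and bars are group means. Genes from Gfra1 to Cdh1, Ccnd2 and Ddx4 have all THY1+ points above the KIT+ points, Neurog3 overlaps below 1 FPKM, and Rhox13, Dmrtb1 and Kit have all KIT+ points on top.

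Among 9 genes of differentiating spermatogonia, 3 were higher and 1 was lower in KIT+ dSPG, beside 10.5% and 12.2% of all genes. The median log2 change was 0.22. The count and the median include Kit, on which the cells were sorted, so Kit adds no support. Besides Kit, the higher genes were Dmrtb1 and Rhox13. Dmrtb1, a DM-domain factor of the passage from mitosis to meiosis, was at 6.01, 3.66 and 6.05 FPKM in THY1+ uSPG and at 10.01, 20.4 and 23.6 FPKM in KIT+ dSPG (log2 change 1.71 ± 0.37, adjusted p 0.00542). Rhox13, an X-linked homeobox gene of differentiating germ cells, was at 17.3, 13.2 and 16.96 FPKM against 24.2, 31.1 and 26.6 FPKM (log2 change 0.78 ± 0.16, adjusted p 0.00340). In the Dmrtb1 values KIT+ replicate 1 was below the other KIT+ libraries, and for both genes all KIT+ libraries were above all THY1+ libraries. The lower gene was Ccnd2, which encodes cyclin D2 and stood at 58.9, 52.4 and 63.5 FPKM in THY1+ uSPG and at 16.4, 17.8 and 21.9 FPKM in KIT+ dSPG (log2 change -1.64 ± 0.21, adjusted p 1.70e-04). By immunofluorescence in older testes the study found CCND2 protein in a part of uSPG, and not in dSPG without ZBTB16. Stra8, the retinoic acid-induced gene of entry into meiosis, was at 44.1, 50.5 and 44.6 FPKM in THY1+ uSPG and at 54.0, 45.0 and 65.2 FPKM in KIT+ dSPG. The groups overlapped, and the log2 change of 0.22 ± 0.15 did not pass (adjusted p 0.277). Between the WT fractions of the Zbtb16 table the log2 change of Stra8 was 1.11 and passed, and the difference between the tables was not tested. Sohlh1 and Sohlh2, helix-loop-helix factors that are switched on as spermatogonia differentiate, had log2 changes of -0.14 ± 0.15 and 0.01 ± 0.14, and the de novo DNA methyltransferases Dnmt3a and Dnmt3b had -0.36 ± 0.15 and 0.33 ± 0.24; none of these 4 passed. Centring on germ cell genes added Stra8 and Dnmt3b to the genes that passed as higher, at log2 changes of 0.68 and 0.79.

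Few genes of meiosis changed. Of 24 genes 2 were lower and 0 higher, beside 22.7% of all genes changed, and the median log2 change was -0.10. Spo11, which makes the double-strand breaks of recombination, was at 1.52, 2.36 and 2.35 FPKM in THY1+ uSPG and at 0.794, 1.34 and 0.948 FPKM in KIT+ dSPG (log2 change -0.95 ± 0.23, adjusted p 0.00958). Msh5, a mismatch repair family member of crossover formation, had a log2 change of -0.68 ± 0.18 (adjusted p 0.0165) and did not pass in 2 of 6 fits that each left out 1 library, with an adjusted p of 0.0663 without THY1+ replicate 3. The synaptonemal complex gene Sycp3 was at 70.5, 77.9 and 73.9 FPKM in THY1+ uSPG and 73.2, 117 and 101 FPKM in KIT+ dSPG, which overlap, and its log2 change of 0.36 ± 0.16 did not pass (adjusted p 0.105). Prdm9, the histone methyltransferase that places recombination hotspots, was at 1.04, 1.096 and 1.27 against 1.51, 4.02 and 1.82 FPKM without overlap, and its log2 change of 0.93 ± 0.34 had an adjusted p of 0.0577. With the replicate block Prdm9 passed as higher (adjusted p 0.0307) and Rec8, the meiotic cohesin subunit, as lower (log2 change -0.66 ± 0.26, adjusted p 0.0435), so that the counts were 1 higher and 3 lower, and without KIT+ replicate 2 they were 0 and 4. With the block on the 6 cKO libraries alone Rec8 passed (adjusted p 0.0414) and Prdm9 did not (0.0881). Sycp1, Syce1 and Dmc1 had log2 changes of -0.09 ± 0.13, 0.01 ± 0.12 and -0.06 ± 0.13. Under centring on germ cell genes the direction turned, with a median of 0.36 and 4 genes higher against 0 lower. For all genes that centring gave a median of 0.44, with 30.9% higher and 5.76% lower. Among the WT fractions of the Zbtb16 table the same list had 4 higher and 1 lower and a median of 0.31. There 7.21% of all genes were higher and 14.0% lower.

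Of 8 genes that every germ cell uses, 2 were lower in KIT+ dSPG, Ddx4 and Tdrd1, and 0 were higher, beside 12.2% and 10.5% of all genes. Ddx4, the germ cell RNA helicase whose promoter drives the Cre, was at 184, 172 and 195 FPKM in THY1+ uSPG and at 104, 116 and 128 FPKM in KIT+ dSPG (log2 change -0.66 ± 0.10, adjusted p 4.89e-04), while Dazl was at 483, 429 and 548 against 354, 522 and 471 FPKM and did not pass. Without KIT+ replicate 1 the log2 change of Tdrd1 was -0.55, under 1.5-fold, and Ddx4 alone was lower. In the piRNA pathway, which silences transposons in the germ line, 7 of 17 genes were lower and 0 higher, beside the same shares of all genes. The median was -0.52. Piwil4, the nuclear PIWI protein, was at 6.71, 9.78 and 8.38 FPKM in THY1+ uSPG and 2.58, 3.96 and 4.17 FPKM in KIT+ dSPG (log2 change -1.21 ± 0.22), and the tudor protein gene Tdrd5 was at 15.4, 15.6 and 16.8 against 7.65, 8.56 and 9.28 FPKM (log2 change -0.90 ± 0.14). Under centring on germ cell genes the list of germ cell genes had 1 higher and 0 lower. This centring uses those same 8 genes, so it sets their middle change near 0 and says nothing about them. Of the piRNA list 1 gene, Piwil4, stayed lower under it (log2 change -0.75). The part that a smaller share of germ cell RNA in KIT+ dSPG has in these changes was not tested.

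**Figure D2:**
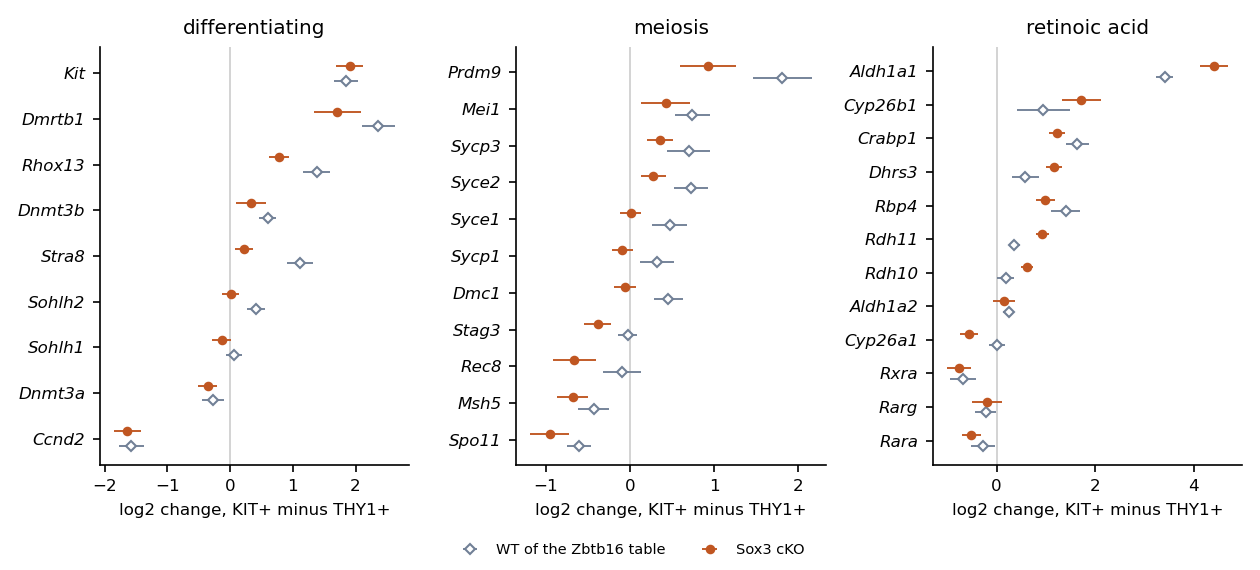
Log2 change between KIT+ dSPG and THY1+ uSPG with its standard error for genes of differentiating spermatogonia, meiosis and retinoic acid, in Sox3 cKO (orange circles, 3 against 3 libraries) and in WT of the separately normalized Zbtb16 table (open diamonds, 3 against 3). Kit, Dmrtb1 and Rhox13 lie right of 0 in both tables, Stra8 lies at 0.22 in the cKO and 1.11 in the Zbtb16 table, and Aldh1a1 has the largest change of the retinoic acid genes.

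Of 15 genes that make, carry and break down retinoic acid, 8 were higher in KIT+ dSPG and 0 lower, beside 10.5% and 12.2% of all genes. The median log2 change was 0.66. Aldh1a1, a retinaldehyde dehydrogenase, was at 41.2, 58.4 and 37.0 FPKM in THY1+ uSPG and at 1188, 958 and 749.6 FPKM in KIT+ dSPG (log2 change 4.41 ± 0.29, adjusted p 6.69e-07). Crabp1, a cellular carrier of retinoic acid, was at 42.1, 42.2 and 46.0 against 85.2, 124 and 99.9 FPKM (log2 change 1.23 ± 0.15). Cyp26b1, a cytochrome P450 that degrades retinoic acid, was at 13.9, 38.0 and 13.8 FPKM in THY1+ uSPG and at 52.7, 69.5 and 71.9 FPKM in KIT+ dSPG. THY1+ replicate 2 stood apart from the other THY1+ libraries but below every KIT+ library, and the log2 change was 1.72 ± 0.39 (adjusted p 0.00679). With replicates 2 and 3 alone it did not pass (log2 change 1.62, adjusted p 0.0873). Cyp26a1, another enzyme of the family, was at 3.16, 3.02 and 2.32 against 1.82, 1.57 and 2.29 FPKM, a change under 1.5-fold (-0.56 ± 0.19). The dehydrogenases and reductases of retinol and retinal Dhrs3, Rdh11 and Rdh10 had log2 changes of 1.16 ± 0.15, 0.93 ± 0.14 and 0.61 ± 0.12. Rdh10 was under 1.5-fold with replicates 2 and 3 alone (0.57) and with a pseudocount of 1 (0.51). Aldh1a2, the retinaldehyde dehydrogenase of germ cells, did not pass (0.15 ± 0.23, adjusted p 0.665). Of the 6 receptors 2 were lower, beside 12.2% of all genes. They were Rxra (-0.77 ± 0.24) and Rxrg (-1.39 ± 0.40). Rxra did not pass in 5 and Rxrg in 3 of 6 fits that each left out 1 library. In these fits the adjusted p was up to 0.130 and 0.0862, without KIT+ replicate 1 and KIT+ replicate 3. With the replicate block on the 6 cKO libraries alone Rxrg did not pass either (adjusted p 0.0704). Rara, another of these receptors, was at -0.52 ± 0.19 and did not pass (adjusted p 0.0638). The summed level of 8 Leydig cell markers, 7 of them higher, was 92.9 to 124.4 FPKM in THY1+ uSPG and 2544 to 5026 FPKM in KIT+ dSPG, and its part in the levels of these retinoic acid genes was not tested.

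Receptors and inhibitors of fibroblast growth factor (FGF) signalling went in both directions. Of 10 genes 2 were higher and 3 lower, beside 10.5% higher and 12.2% lower of all genes. Fgfr2 was at 3.11, 3.42 and 2.52 FPKM in THY1+ uSPG and at 15.8, 12.2 and 12.2 FPKM in KIT+ dSPG (log2 change 2.12 ± 0.17), and Fgfr4 at 0.325, 0.308 and 0.353 against 1.85, 1.19 and 1.36 FPKM (log2 change 1.85 ± 0.24). The feedback inhibitors of the pathway that changed were lower, Dusp6, a phosphatase of ERK, at 64.7, 53.9 and 69.2 against 29.0, 22.3 and 30.7 FPKM (log2 change -1.199 ± 0.19), Spry4 with -1.22 ± 0.25 and Spred2 with -0.85 ± 0.26. Spred2 did not pass in 4 of 6 fits that each left out 1 library (adjusted p of up to 0.0984, without KIT+ replicate 1). Spry4 did not pass with replicates 2 and 3 alone (log2 change -1.13). Fgfr1, a receptor of undifferentiated spermatogonia, did not pass (-0.39 ± 0.22, adjusted p 0.210). Among the 7 genes of ID proteins and their E-protein partners, Id4 was lower, Tcf4 was higher (log2 change 0.81 ± 0.17, adjusted p 0.00395) and Id1, Id2 and Id3 overlapped between the groups. With replicates 2 and 3 alone Tcf4 did not pass (log2 change 0.65). In WT of the Zbtb16 table Tcf4 did not pass (-0.07), and the difference between the tables was not tested.

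Of 12 D-type cyclins, partners and inhibitors 3 changed, beside 22.7% of all genes: Ccnd2 and Cdkn1a, the p21 gene, were lower and Cdkn2c, the p18 gene, was higher. Cdkn1a was at 2.39, 2.16 and 3.58 FPKM in THY1+ uSPG and 0.573, 0.988 and 0.760 FPKM in KIT+ dSPG (log2 change -1.68 ± 0.25, adjusted p 4.98e-04). Cdkn2c was at 7.08, 6.86 and 6.26 against 11.9, 9.22 and 10.3 FPKM (log2 change 0.62 ± 0.12), and without KIT+ replicate 1 or THY1+ replicate 3 its log2 change, 0.53 and 0.57, was under 1.5-fold. Ccnd1 and Cdk4 were at -0.23 ± 0.20 and -0.17 ± 0.15 and did not pass. In replication and mitosis 1 of 22 genes changed, beside the same 22.7% of all genes. It was Ccne2, the cyclin E2 gene, at 19.9, 17.3 and 20.6 FPKM in THY1+ uSPG and 27.4, 41.3 and 28.9 FPKM in KIT+ dSPG (log2 change 0.73 ± 0.17). Ccne2 did not pass without KIT+ replicate 2 (0.55). Mki67 and Pcna, which mark cycling cells, did not pass, at -0.11 ± 0.17 and 0.09 ± 0.17 on the log2 scale. Of 8 genes of DNA methylation 1 changed, again beside 22.7% of all genes. It was Dnmt3l, the cofactor of the de novo enzymes, at 0.488, 0.972 and 1.14 FPKM in THY1+ uSPG and 0.225, 0.339 and 0.311 FPKM in KIT+ dSPG (log2 change -1.24 ± 0.30). With the replicate block Uhrf1, the partner of DNMT1, passed as lower too (-0.65 ± 0.24, adjusted p 0.00894). With a pseudocount of 1 the log2 change of Dnmt3l was -0.51, adjusted p 0.00759, under 1.5-fold.

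Genes of Leydig cells, the steroid-making cells between the tubules, which are not spermatogonia, were among those that rose most. Of 8 Leydig cell markers 7 were higher in KIT+ dSPG and 0 lower, beside 10.5% and 12.2% of all genes. The median log2 change was 4.88. Hsd3b1, a steroid dehydrogenase, was at 40.3, 25.2 and 37.6 FPKM in THY1+ uSPG and at 2053, 1050.3 and 1263 FPKM in KIT+ dSPG. Cyp17a1, the 17-hydroxylase of androgen synthesis, was at 17.01, 12.8 and 18.3 against 928, 566 and 709 FPKM, and Insl3, a Leydig cell hormone, at 9.74, 7.58 and 9.18 against 602, 258 and 338 FPKM. Their log2 changes were 5.37 ± 0.35, 5.49 ± 0.32 and 5.40 ± 0.35, and KIT+ replicate 1 was the highest library for all 3. Nr5a1, the nuclear receptor that drives steroidogenic genes, was at 5.52, 8.71 and 5.52 FPKM against 67.5, 40.0 and 54.5 FPKM (log2 change 3.02 ± 0.26). Hsd17b3, the last enzyme of testosterone synthesis, was at 12.6, 15.1 and 20.8 against 17.5, 10.9 and 25.3 FPKM, which overlap. Outside the marker lists, the changes were largest for Ren1, a renin gene, at 2.42 ± 1.34 and 181 ± 121; for Aldh3a1, an aldehyde dehydrogenase, at 0.923 ± 0.424 and 49.3 ± 6.77; for Cst8, a cystatin, at 4.19 ± 0.530 and 159 ± 52.4; for Hao2, a hydroxyacid oxidase, at 1.75 ± 0.354 and 61.9 ± 20.7; and for Adh1, an alcohol dehydrogenase, at 7.45 ± 2.09 and 205 ± 117 (mean FPKM ± SD in THY1+ uSPG and KIT+ dSPG). Ren1 ranged from 81.2 to 315 FPKM among KIT+ libraries. Ppp1r3a and Slc25a34 were also among the 10 highest of these genes, with log2 changes of 5.16 ± 0.31 and 4.75 ± 0.35, and so were Olfr329-ps and Olfr330, which belong to a large gene family whose reads can be placed at many copies. The transcript 6030471H07Rik, the remaining member of that set, had about 1 read in the 3 THY1+ libraries and 95 in the 3 KIT+ libraries.

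The letters aaggtca on either strand, the core of the sequence that NR5A1 binds, were searched in the 250 bases before the RefSeq start of 12945 genes (GRCm38.p6), and this word and the others below were chosen after the values were seen. They were in 3.03% of all these promoters. Among changed genes they were in 3.93% (57 of 1450) of those higher and 3.13% (53 of 1691) of those lower in KIT+ dSPG. For changes of at least 4-fold the shares were 7.63% (18 of 236) and 5.23% (16 of 306). The letters aacaaag, an HMG-box word of the kind SOX factors bind, were in 3.62% of all. They were in 4.07% (59 of 1450) of genes higher and 4.14% (70 of 1691) of genes lower. For changes of at least 4-fold these were 5.93% (14 of 236) and 4.90% (15 of 306). The promoter of Cst8 (chr2:148798589-148798838, plus strand) is shown as one of the genes that rose most and holds the first word, in capitals, at -47.
Cst8: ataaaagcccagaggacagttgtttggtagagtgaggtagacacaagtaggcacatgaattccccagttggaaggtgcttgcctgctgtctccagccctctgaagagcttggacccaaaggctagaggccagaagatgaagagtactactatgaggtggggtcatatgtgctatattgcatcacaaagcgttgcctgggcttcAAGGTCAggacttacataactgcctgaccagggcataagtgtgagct

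Markers of other somatic cells of the testis were spread over both directions. Of 12 Sertoli cell genes 6 were higher and 1, Rhox5, was lower in KIT+ dSPG, beside 10.5% and 12.2% of all genes. The median log2 change was 0.78. Clu, clusterin, was at 13.6, 27.1 and 16.6 FPKM in THY1+ uSPG and at 174, 106 and 120.2 FPKM in KIT+ dSPG (log2 change 2.83 ± 0.26), and Inha, the inhibin alpha chain, at 8.55, 12.4 and 11.03 against 93.1, 42.4 and 50.9 FPKM (log2 change 2.46 ± 0.25). Gdnf, the ligand of RET, was at 0.937, 1.397 and 0.994 FPKM in THY1+ uSPG and at 5.39, 5.64 and 6.16 FPKM in KIT+ dSPG, a log2 change of 2.29 ± 0.28 opposite to that of its receptors. Kitl, the ligand of KIT, was at 5.39, 13.5 and 6.81 against 19.9, 21.3 and 19.0 FPKM (log2 change 1.33 ± 0.27). The defining Sertoli genes Sox9 and Amh did not pass, with log2 changes of -0.08 ± 0.46 and 0.45 ± 0.28, and Sox9 was at 0.642, 2.88 and 1.25 FPKM in KIT+ dSPG. The summed level of the list was 49.9 to 86.2 FPKM in THY1+ uSPG and 221.3 to 336.4 FPKM in KIT+ dSPG.

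Of 9 endothelial genes 6 were higher in KIT+ dSPG and 0 lower, beside 10.5% and 12.2% of all genes. The median log2 change was 1.44. Emcn, endomucin, was at 0.201, 0.168 and 0.149 FPKM in THY1+ uSPG and at 3.30, 1.34 and 1.92 FPKM in KIT+ dSPG (log2 change 2.98 ± 0.35, adjusted p 8.16e-05). Pecam1, a junction protein, was at 1.51, 1.52 and 2.04 against 8.09, 3.85 and 6.23 FPKM (log2 change 1.73 ± 0.24) and the receptor gene Kdr at 1.47, 1.41 and 2.21 against 8.92, 4.39 and 9.70 FPKM (log2 change 2.06 ± 0.29). KIT+ replicate 2 was the lowest KIT+ library for all 3 genes. The same genes between the WT fractions of the Zbtb16 table were at 0.42, -0.18 and -0.09 on the log2 scale and did not pass there. Of 13 peritubular and stromal genes 2 were lower, beside 12.2% of all genes. They were Pdgfrb, a receptor of pericytes, at 6.78, 7.64 and 5.21 against 1.38, 1.13 and 1.99 FPKM (log2 change -2.07 ± 0.31), and Des, desmin (log2 change -1.15 ± 0.28). Acta2, smooth muscle actin, and Pdgfra overlapped between the groups. The median of this list turned from -0.35 to a positive value under centring on germ cell genes.

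**Figure D3:**
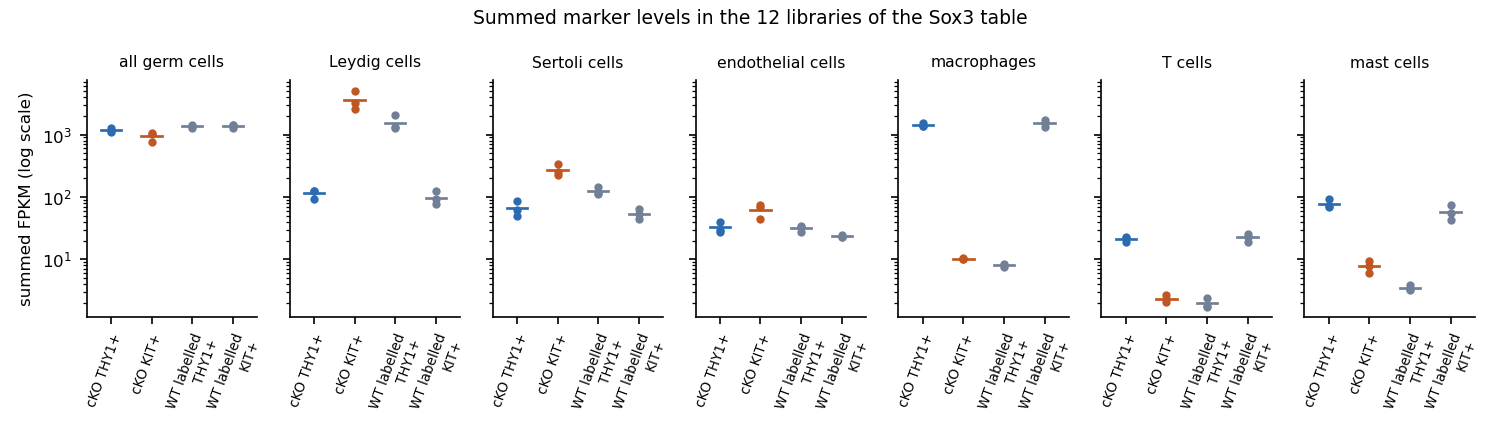
Summed FPKM (log axis) of 7 marker lists in each of the 12 libraries of the Sox3 table; points are libraries, bars are group means, and the WT libraries are shown as labelled. In the cKO the Leydig sum lies at 92.9 to 124.4 FPKM in THY1+ uSPG and 2544 to 5026 FPKM in KIT+ dSPG, and the macrophage sum at 1351.5 to 1516 and 9.98 to 10.3 FPKM.

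Genes of immune cells were among those that fell most. All 13 macrophage genes were lower in KIT+ dSPG, with a median log2 change of -7.79 and a summed level of 1351.5 to 1516 FPKM in THY1+ uSPG and 9.98 to 10.3 FPKM in KIT+ dSPG. C1qa, a subunit of complement C1q, was at 190.0, 159 and 165 FPKM in THY1+ uSPG and at 0.136, 0 and 0 FPKM in KIT+ dSPG, about 4 reads in all in the latter. Lyz2, the lysozyme of myeloid cells, was at 391, 325 and 325 against 0.839, 2.27 and 1.60 FPKM (log2 change -7.79 ± 0.38), and Csf1r, the receptor of macrophage growth, at 64.7, 61.1 and 63.6 against 2.23, 2.18 and 1.99 FPKM (log2 change -4.82 ± 0.11). Pf4, F13a1 and Cx3cr1 had log2 changes of -9.27 ± 0.53, -8.34 ± 0.19 and -7.87 ± 0.23, and no KIT+ library of these 3 genes reached 1 FPKM. Of 10 T cell genes 9 were lower and 0 higher, beside 12.2% and 10.5% of all genes. Their summed level was 19.1 to 23.2 FPKM against 2.08 to 2.67 FPKM. Cd3g, a chain of the T cell receptor complex, was at 9.92, 7.04 and 10.03 FPKM in THY1+ uSPG and 0.0992, 0 and 0.158 FPKM in KIT+ dSPG (log2 change -5.70 ± 0.40), and Cd4 at 3.90, 3.53 and 3.19 against 0.0966, 0.0838 and 0.0419 FPKM. Cd3e did not pass (0.0528) but did with the replicate block (0.01003). Of 6 mast cell genes 5 were lower, with Cpa3, a carboxypeptidase of their granules, at 18.2, 25.1 and 17.4 against 0.609, 0.990 and 0.233 FPKM, and 1, Hdc, was higher (1.15 ± 0.17). T cells carry THY1 and mast cells carry KIT; the mast cell sum was 68.8 to 94.1 FPKM in THY1+ uSPG and 6.03 to 9.44 FPKM in KIT+ dSPG. Among 5 erythroid genes none passed, with Hbb-bs at 42.6 FPKM in KIT+ replicate 1 and 9.22 to 12.9 FPKM in the other 5 libraries. The part of these cells in the other changes was not tested.

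Outside the lists as matched by symbol, the genes that fell most included others of macrophages. Emr1, which encodes the macrophage antigen F4/80, is an earlier symbol of Adgre1, a member of the macrophage list that went unmatched. Emr1 was at 46.9 ± 2.74 and 0.0428 ± 0.0291 (mean FPKM ± SD), Fcrls, an Fc receptor-like gene, at 62.8 ± 8.13 and 0.0805 ± 0.0921, and Ctss, cathepsin S, at 113 ± 18.0 and 0.288 ± 0.141. The chemokine genes Ccl2, Ccl7 and Xcl1 had log2 changes of -7.05 ± 0.56, -7.01 ± 0.46 and -6.56 ± 0.18. Cbr2, Lst1 and AF251705 had about 1, 2 and 2 reads in the 3 KIT+ libraries together and 1516, 390 and 904 in the 3 THY1+ libraries, and Ms4a6d, of a family of membrane proteins, had 4 and 1930. The letters gaggaagt on either strand, a word of the kind that the myeloid factor PU.1 binds, were in 2.39% of the 12945 promoters, in 9.80% (30 of 306) of those of genes at least 4-fold lower and in 0.424% (1 of 236) of those of genes at least 4-fold higher in KIT+ dSPG. Over all changed genes they were in 4.38% (74 of 1691) of those lower and 1.24% (18 of 1450) of those higher. The promoters of Pf4 (chr5:90772185-90772434, plus strand) and C1qc (chr4:136892915-136893164, minus strand) are shown because both genes are among those that fell most and hold the word, which reads ACTTCCTC on their own strand, at -10 and -195. A match of letters is a description of the sequence and not a binding site.
Pf4: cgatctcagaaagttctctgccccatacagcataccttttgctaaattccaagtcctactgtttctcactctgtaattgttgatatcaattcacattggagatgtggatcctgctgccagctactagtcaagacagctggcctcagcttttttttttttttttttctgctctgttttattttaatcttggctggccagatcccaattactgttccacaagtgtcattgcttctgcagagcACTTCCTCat
C1qc: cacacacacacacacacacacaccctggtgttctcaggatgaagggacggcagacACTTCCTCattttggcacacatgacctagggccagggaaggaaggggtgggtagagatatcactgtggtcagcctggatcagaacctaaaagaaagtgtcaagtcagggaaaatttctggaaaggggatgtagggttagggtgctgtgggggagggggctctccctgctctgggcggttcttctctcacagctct

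Of 18 genes of cholesterol synthesis and its control, 6 were higher and 1 lower in KIT+ dSPG, beside 10.5% and 12.2% of all genes. The median log2 change was 0.46. Hmgcs1, the synthase of the first committed steps, was at 71.7, 72.0 and 82.2 FPKM in THY1+ uSPG and at 250.5, 181 and 219 FPKM in KIT+ dSPG (log2 change 1.51 ± 0.13, adjusted p 6.23e-06). Cyp51, the demethylase of lanosterol, was at 21.7, 20.7 and 25.2 against 51.6, 48.4 and 48.4 FPKM (log2 change 1.13 ± 0.11), and Pmvk, Sc5d and Msmo1 had log2 changes of 1.11 ± 0.14, 1.07 ± 0.09 and 0.97 ± 0.13. The lower gene was Srebf2, the factor that switches the pathway on (-0.74 ± 0.21, adjusted p 0.0189), which did not pass in 3 of 6 fits that each left out 1 library (adjusted p of up to 0.0746, without KIT+ replicate 1). Steroid-making cells use this pathway, and the part of the Leydig cell markers, higher in the same libraries, was not tested. In glycolysis 2 of 14 genes were higher and 3 lower, beside 10.5% higher and 12.2% lower of all genes. The sum of the 2 glycolysis counts fell to 2 or 3 without KIT+ replicate 1 or 2 or without THY1+ replicate 1 or 3. Tpi1, triosephosphate isomerase, was at 25.95, 25.97 and 24.2 FPKM in THY1+ uSPG and 59.4, 43.2 and 49.4 FPKM in KIT+ dSPG (log2 change 0.98 ± 0.17), and Pkm, pyruvate kinase, at 147, 120.0 and 155 against 80.0, 78.8 and 102 FPKM (log2 change -0.69 ± 0.16). The other 3 changed genes of glycolysis, Hk1, Gpi1 and Pfkl, each did not pass in 4 or 5 of 6 fits that each left out 1 library (adjusted p of up to 0.144, for Hk1 without KIT+ replicate 1).

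Of 82 genes of oxidative phosphorylation 8 were higher and 0 lower, with Ndufa12 at 12.3, 9.59 and 10.6 FPKM in THY1+ uSPG and 26.6, 21.3 and 20.1 FPKM in KIT+ dSPG (log2 change 1.06 ± 0.16), beside 10.5% of all genes. Without KIT+ replicate 1 the counts were 4 and 1. Of 81 cytosolic ribosomal protein genes 8 were higher and 1 lower, beside 10.5% higher and 12.2% lower of all genes. The ribosomal counts were 3 and 1 without KIT+ replicate 1 and 4 and 1 without THY1+ replicate 3. Of 59 replication-dependent histone genes 10 were higher and 0 lower, beside the same shares of all genes. The histone counts were 18 and 0 with the replicate block. They were 5 and 0 without THY1+ replicate 2, and 6 and 0 without THY1+ replicate 3 or KIT+ replicate 2. Hist2h2be, at 0.829, 1.07 and 0.888 against 5.35, 4.20 and 4.52 FPKM (log2 change 2.22 ± 0.18), had the largest change of these. Ribosomal protein genes have many processed pseudogenes and histone genes have near-identical copies, so their values are uncertain under an aligner setting that lets reads be placed at many positions.

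Of 43 collagen genes 7 were higher and 6 lower, beside 10.5% higher and 12.2% lower of all genes. Col14a1 was at 1.44, 1.86 and 2.05 FPKM in THY1+ uSPG and at 18.4, 20.9 and 15.05 FPKM in KIT+ dSPG (log2 change 3.27 ± 0.19), and Col4a5, a chain of basement membranes, at 7.85, 13.3 and 5.58 against 28.5, 27.6 and 23.6 FPKM (log2 change 1.65 ± 0.32). Col15a1, a collagen of the basement membrane zone, was at 7.98, 25.1 and 8.49 FPKM in THY1+ uSPG and at 3.72, 5.02 and 5.71 FPKM in KIT+ dSPG. THY1+ replicate 2 held the highest value, and the log2 change of -1.32 ± 0.41 (adjusted p 0.0309) was -0.78 without that library (adjusted p 0.0844). Of 25 Hox genes 8 were higher and 3 lower, beside the same shares of all genes. The Hox counts were 3 and 1 without THY1+ replicate 3 and 5 and 1 without THY1+ replicate 1. They were 3 and 3 without KIT+ replicate 1 and 5 and 2 without KIT+ replicate 3. Hoxd8 was at 9.40, 11.7 and 6.74 FPKM in THY1+ uSPG and 31.8, 20.6 and 26.05 FPKM in KIT+ dSPG (log2 change 1.498 ± 0.33) and Hoxd3 at 2.20, 2.99 and 2.06 against 8.65, 5.64 and 6.13 FPKM (log2 change 1.45 ± 0.26), while Hoxb4 was lower (-1.36 ± 0.28). Of 18 Rhox genes, an X-linked homeobox cluster of the testis, 1 was higher, Rhox13, and 4 were lower, beside the same shares of all genes, 10.5% and 12.2%. Rhox1 was at 5.11, 5.14 and 5.87 against 1.44, 1.44 and 2.01 FPKM (log2 change -1.68 ± 0.18) and Rhox10, a factor of early spermatogonia, at 14.5, 17.8 and 16.9 against 9.19, 9.42 and 12.6 FPKM (log2 change -0.66 ± 0.14). Without KIT+ replicate 1 Rhox10 fell short of 1.5-fold (-0.58). The other lower genes were Rhox5 (-0.96 ± 0.25) and the pseudogene Rhox7-ps (-1.47 ± 0.34). Rhox5 did not pass without THY1+ replicate 1, THY1+ replicate 3 or KIT+ replicate 2 (log2 changes -0.84, adjusted p 0.0547, -0.90, adjusted p 0.0522 and -0.77, adjusted p 0.0501).

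**Figure D4:**
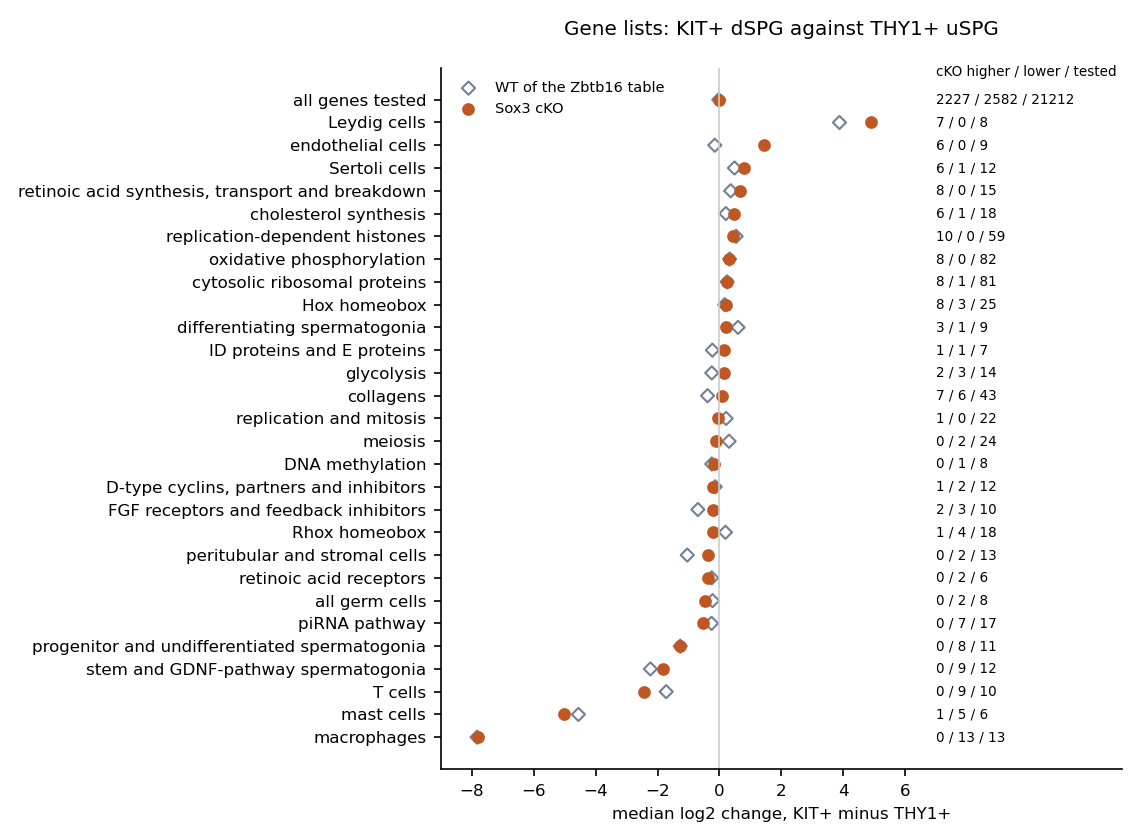
Median log2 change between KIT+ dSPG and THY1+ uSPG over the tested genes of 28 lists (the erythroid list is not drawn) and over all genes, in Sox3 cKO (orange circles) and in WT of the Zbtb16 table (open diamonds); the numbers at the right are genes higher, lower and tested in the cKO. Leydig cell genes lie at 4.88, stem and GDNF-pathway genes at -1.83 and macrophage genes at -7.79 in the cKO.

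The WT fractions of the Zbtb16 table were set beside those of the cKO. There 4737 of 22374 genes tested changed (21.2%), 1614 higher (7.21%) and 3123 lower (14.0%) in KIT+ dSPG. Over the 21037 genes tested in both tables, 1003 genes were higher in both, 45.5% of the 2204 that were higher in the cKO and 63.8% of the 1572 higher in the Zbtb16 table. Lower in both were 1972 genes, 77.1% of 2559 and 65.5% of 3012. Across these genes the log2 changes had a Pearson r of 0.865 and a Spearman rho of 0.743, given as a description since genes are not independent replicates and the tables hold separate libraries. Of the spermatogonial genes, Ret was at -2.36 ± 0.34 in the cKO and -2.81 in the Zbtb16 table, Gfra1 at -1.99 ± 0.24 and -2.60, Zbtb16 at -1.78 ± 0.29 and -1.53, and Kit at 1.91 ± 0.22 and 1.85. The list of stem and GDNF-pathway genes had 10 lower of 12 there (median -2.23), that of progenitors 9 of 11 (-1.27) and that of differentiating spermatogonia 5 higher and 1 lower of 9 (0.60). The last list includes Kit, on which the cells were sorted. The 5 lists whose medians were furthest apart were all of somatic or blood cells. The median of endothelial genes was 1.44 in the cKO and -0.15 in the Zbtb16 table (6 higher against 2 lower), that of Leydig cell genes 4.88 and 3.88 (7 higher against 8 higher), that of erythroid genes 0.78 and 1.62 (0 changed in either), that of T cell genes -2.42 and -1.72 (9 lower against 8 lower) and that of peritubular and stromal genes -0.35 and -1.04 (2 lower against 7 lower). Quantile normalization moved the share of higher genes among those changed in the Zbtb16 table from 34.1% to 49.4%.

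Opposite directions were found for 8 genes, 6 higher and 2 lower in the cKO. Of those that reached 1 FPKM in a cKO group, Tm4sf1, a membrane protein of endothelial and other cells, was at 0.748, 0.514 and 0.799 FPKM in THY1+ uSPG and 3.01, 1.23 and 2.29 FPKM in KIT+ dSPG (log2 change 1.47 ± 0.39, -1.25 in the Zbtb16 table). Cd93, a receptor of endothelial and myeloid cells, was at 6.46, 5.85 and 7.77 FPKM in THY1+ uSPG and 14.3, 8.19 and 13.5 FPKM in KIT+ dSPG (log2 change 0.80 ± 0.21, -1.19 in the Zbtb16 table). Nxpe2 was at 0.612, 0.775 and 0.785 FPKM in THY1+ uSPG and 2.08, 0.907 and 1.48 FPKM in KIT+ dSPG (log2 change 0.89 ± 0.27, -0.82 in the Zbtb16 table), Sntg2, a syntrophin, at 0.640, 0.940 and 0.871 FPKM in THY1+ uSPG and 2.20, 1.31 and 2.03 FPKM in KIT+ dSPG (log2 change 1.07 ± 0.26, -0.63 in the Zbtb16 table), and the microRNA locus Gm24806 at 3.77, 5.04 and 8.94 FPKM in THY1+ uSPG and 3.15, 2.82 and 2.82 FPKM in KIT+ dSPG (log2 change -0.90 ± 0.25, 1.41 in the Zbtb16 table), with about 24 reads in the 3 THY1+ and 14 in the 3 KIT+ libraries. In the 6 cKO fits that each left out 1 library, 4 of these 5 did not always pass. Tm4sf1 did not pass in 2 of 6 (adjusted p of up to 0.0639), Cd93 in 3 (0.0644) and Nxpe2 in 4 (0.115), each highest without KIT+ replicate 1, and Gm24806 in 3 (0.0523, without KIT+ replicate 3). Sntg2 passed in these fits but did not with replicates 2 and 3 alone (log2 change 0.79).

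**Figure D5:**
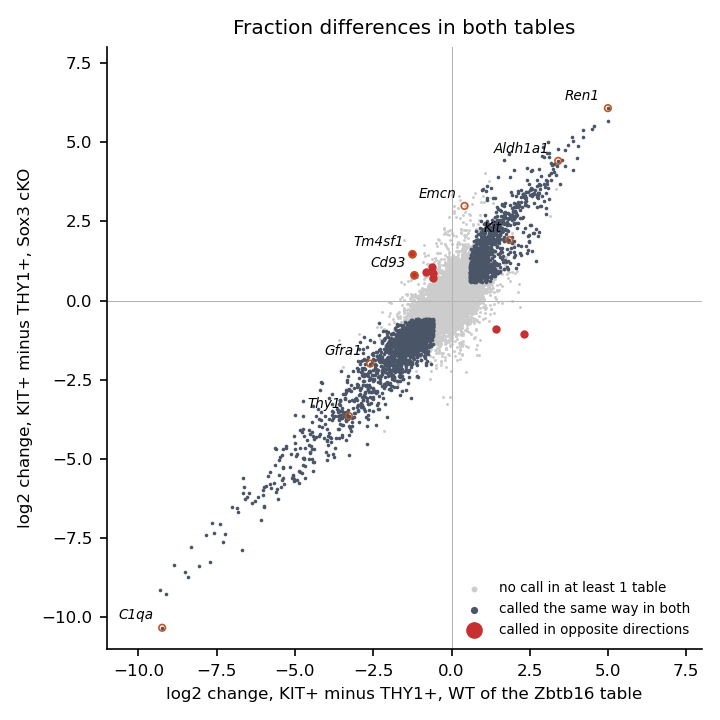
Log2 change between KIT+ dSPG and THY1+ uSPG for each gene tested in both tables, WT of the Zbtb16 table on the x axis and Sox3 cKO on the y axis; grey genes are not changed in at least 1 table, dark genes change the same way in both and red genes in opposite directions. Ren1 lies at 6.07 and C1qa at -10.33 in the cKO, and Emcn lies at 2.98 in the cKO and 0.42 in the Zbtb16 table.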

How the data were processed

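THY1+ and KIT+ fractions were compared over all genes of the table of the Sox3 experiment. Per the study's methods the authors aligned single reads of stranded, ribosomal RNA-depleted libraries with Novoalign to the mm10 genome, in a setting that lets a read with several alignments be placed at many positions. The deposited values are FPKM per gene that the authors made from the processed reads, and the tool for this step is not given in the sources used here. The read count behind them is not listed and was estimated from the steps between low values (78.2 to 80.0% of low values were whole reads within 0.05), so reads are written as "about". The authors tested counts with DESeq2. Here limma 3.58.1 (R 4.3.3) was fitted to log2(FPKM + 0.1) of genes with a mean of at least 0.1 FPKM over the 12 libraries of a table, with 4 group means and moderated variances with trend and robust settings, two-sided, with Benjamini-Hochberg adjustment; every adjusted p is from limma. A gene was called at an adjusted p of at most 0.05 and at least 1.5-fold. Fold changes are on that log2 scale, which understates low genes. Replicates are separate isolations as labelled, and where they share a source p-values measure only that spread. Deviations of same-numbered cKO libraries from their group means had an r of 0.262, 0.116 and 0.111 across genes. Between fractions, differently numbered cKO libraries ran from -0.241 to 0.106. Replicate 1 also differs from the others in depth, and whether the numbers pair the samples was not tested. A fit with the replicate number as a block was run beside the main fit. Genes named are any members of the spermatogonial, germ cell, meiosis, retinoic acid, ID, FGF, D-type cyclin and DNA methylation lists, up to 6 of each other list by size of change or as defining markers, the 10 genes at 1 FPKM that changed most in each direction in all genes and outside the lists, and genes of opposite direction in the tables. The members and lists were chosen with earlier results of these data known. Some list members are counted but not reported by name here. The fit was tested on simulated data. Other pseudocounts, filters, normalizations and sets of libraries were tried. Promoters are from RefSeq (GRCm38.p6), and which strand was counted is not given in the sources used here.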

Additional observations from a re-analysis of the deposited data

Results flagged for a closer look

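The change of the sorting markers between the fractions as labelled ran in opposite directions in the cKO and in the WT libraries of the Sox3 table. For Thy1 the log2 change between KIT+ and THY1+ as labelled differed between the cKO and WT by a term of -7.17 (cKO less WT), and for Kit the term was 3.796. Both are given as descriptions with no test, since the cells were sorted on these proteins and the cKO libraries were chosen knowing that the markers ran with their labels. In WT the mean of Thy1 was 0.240 FPKM under the THY1+ label and 3.83 FPKM under the KIT+ label, and that of Kit was 57.9 and 15.3 FPKM. The reversal was not limited to these genes. The macrophage sum in WT was 7.497 to 8.417 FPKM under the THY1+ label and 1328.4 to 1683.7 FPKM under the KIT+ label. The Leydig sum was 1270.3 to 2051.5 FPKM and 76.1 to 122.5 FPKM. The sum of stem and GDNF-pathway genes was 20.84 to 43.78 FPKM and 124.9 to 167.9 FPKM. Each ran opposite to the cKO, while the germ cell sum overlapped between the WT labels. The cause was not tested.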

How the results depend on the processing

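The count of changed genes in the cKO was 4809. It was 2480 with replicates 2 and 3 alone and 2855 with these and the replicate block, 7784 under centring on germ cell genes (added after the data were seen) and 3715 to 4645 when 1 library was left out. With the replicate block in the fit of 12 libraries it was 5360, and among the genes named that block changed no call other than those of Utf1, Pou3f1, Rec8, Prdm9, Uhrf1 and Cd3e, which passed. With the block on the 6 cKO libraries alone (added after the data were seen) it was 4608, Pou3f1, Rec8, Uhrf1 and Cd3e passed, Utf1 and Prdm9 did not, and Rxrg, Pfkl, Nxpe2 and Gm24806 lost the call (adjusted p of 0.0704, 0.0643, 0.0984 and 0.0682). On these 6 libraries without the block the count was 4345, and Nxpe2, Gm24806 and Col15a1 lost the call. In WT of the Zbtb16 table the count was 4737, with 2883 under a pseudocount of 1, 3139 for genes with a mean of at least 1 FPKM and 3895 to 4869 when 1 library was left out. The differences of the sorting markers between cKO and WT of the Sox3 table, given with no test, ran from -7.34 to -7.07 for Thy1 and from 3.65 to 3.91 for Kit when 1 library was left out; a fit of 6 libraries cannot give them. Of the 155 genes named 117 were called, and 83 of these stayed calls in every alternative where they were tested other than centring on germ cell genes, under which 18 lost the call. With replicates 2 and 3 alone 30 lost it, among them Etv5, Sall4, Spry4, Rdh10, Tcf4, Kitl, Des, Pkm, Col4a5, Hoxd8, Hoxb4 and Rhox7-ps. None of the named genes turned direction with a call. The depth of about 11000000 to 11830000 reads in replicates 2 and 3 limits genes under 1 FPKM.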

Other observations

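Genes of the X chromosome and small nucleolar RNA genes were counted as classes that were chosen after the values were seen. Of 902 X-linked genes tested in the cKO 148 (16.4%) were higher and 86 (9.53%) lower in KIT+ dSPG, beside 10.3% higher and 12.4% lower of 19896 autosomal genes. In WT of the Zbtb16 table the shares were 11.6% higher and 11.2% lower on the X chromosome and 7.31% and 14.5% on autosomes. Of 327 small nucleolar RNA genes 32 (9.79%) were higher and 1 (0.306%) lower in the cKO, beside 10.5% higher and 12.2% lower of all genes. The share of higher genes was thus near that of all genes, and the median log2 change was 0.34. Of 323 in WT of the Zbtb16 experiment 19 (5.88%) were higher and 14 (4.33%) lower, beside 7.21% and 14.0% of all genes there. Many of these genes lie in introns of other genes and have near-identical copies, so their values are uncertain.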
